A study of Danio rerio with 2 samples.

Results

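The cytoplasmic ribosomal protein genes of the zebrafish brain were followed in a male and a female library. Members were the genes of the deposited count table whose symbol begins with rpl, rps or rplp and a digit, or with rpsa, leaving out the rps6k kinases. This gave 72 genes of 27095, each with 1 row in the table. Of these, 63 were measured, meaning a mean of at least 1 CPM (counts per 1000000 reads after scaling), and 9 were listed at 0 in both libraries. The groups were brain of wild-type male zebrafish and brain of wild-type female zebrafish, with 1 library for each sex. Each library came from the pooled brains of 5 fish. The sources used here give neither strain nor age.

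The ribosome is built from a small and a large subunit, each an RNA core covered by proteins that are mostly present in a single copy per particle. Their messenger RNAs share a pyrimidine-rich start, the TOP motif, through which mTOR signalling controls their translation together. In zebrafish, loss of a copy of many of these genes predisposes to tumours, and in humans several cause Diamond-Blackfan anaemia.

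Ribosomal protein messenger RNAs stood nearly level between the male and the female library. All 63 measured members lay between 0.812-fold and 1.12-fold of male over female, with a median log2 ratio of -0.06. No member thus reached a difference of 1.5-fold in either direction. Few genes of any kind did so with a counting interval that excluded 1. Among all genes with at least 5 CPM the shares were 1.46% toward the male and 2.4% toward the female library. Small deviations ran mostly one way: 58 of the 63 were lower in the male library (50.4% of all measured genes were), and the median member stood at 0.960 of its female level. The gene farthest to the male side was rpl22l1, with 10950 male and 10419 female reads. On the female side rpl7l1 stood farthest out, with 1565 male and 2050 female reads.

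Reads here are the authors' estimated counts, rounded to whole numbers, and log2 ratios are of male over female after scaling each library by its size factor. The male library held 62248792 estimated reads and the female library 64300988. Every interval is a 95% exact interval that covers counting error only. Since each sex is represented by 1 pooled library, the spread between replicates is unknown, and neither a test nor a p-value is given. Fewer cells of a type and less RNA per cell cannot be told apart in such whole-brain RNA. Counts of different genes also depend on transcript length, which the files do not give, so read numbers below do not rank the genes by level.

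The marker genes of the module, rplp0 and rpl4, had the most reads of all members. The gene rplp0 encodes the base of the P-stalk, the arm of the large subunit that recruits elongation factors, and it is a common reference gene in quantitative PCR. It lies on chromosome 5 (Zv9, 2059986 to 2072814, minus strand) and had 17673 male and 19296 female reads. Its log2 ratio was -0.04 (interval -0.07 to -0.01). The large-subunit gene rpl4, on chromosome 18 (19231877 to 19236912, minus strand), had 15808 male and 17258 female reads and the same ratio, -0.04 (interval -0.07 to -0.01). Both intervals missed 0 narrowly. The ratio of each was -0.11 with the trend with expression level removed and -0.08 with scaling by library totals, while removal of the trend with gene span gave -0.0043 for rplp0 and 0.01 for rpl4.

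The remaining P-stalk genes encode the small acidic proteins that sit on rplp0 in dimers. For rplp1 there were 6970 male and 7601 female reads, a log2 ratio of -0.04 (interval -0.08 to 0.01). For rplp2 there were 4636 male and 4990 female reads, a ratio of -0.02 (interval -0.08 to 0.04). Neither could be told from level at this depth. A second P2 gene, rplp2l, was listed at 0 in both libraries.

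Small-subunit proteins surround the decoding centre and the messenger RNA channel. Among 30 such members, 25 were measured, and 22 of these were lower in the male library (50.4% of all measured genes were). Their median log2 ratio was -0.06. It was -0.017 with the trend with gene span removed and -0.12 with the trend with expression level removed. The intervals of 15 lay wholly below 0, those of 10 held 0 and none lay above it. Of all measured genes, 30.9% had intervals wholly below 0 and 31.5% wholly above it. The laminin-receptor homologue rpsa, at the back of the subunit, had 15012 male and 16969 female reads (-0.09, interval -0.12 to -0.06). The entry-channel gene rps2 had 14657 male and 16332 female reads (-0.07, interval -0.10 to -0.04). Both were among the 5 members with most reads and differed from level by under 0.1.

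The small-subunit gene farthest below 0 was rps8b on chromosome 8 (18713108 to 18718868, minus strand), with 2035 male and 2496 female reads (-0.21, interval -0.29 to -0.12). Next came rps9, a protein of the subunit body involved in decoding accuracy, with 7363 male and 8681 female reads (-0.15, interval -0.19 to -0.10). The 3 ratios above 0 came from rps29, rps19 and rps26l, and the intervals of all of them held 0. For rps26l, whose relative rps26 was listed at 0, there were 3729 male and 3937 female reads (0.01, interval -0.05 to 0.07). The Diamond-Blackfan gene rps19 had 5474 male and 5672 female reads (0.04, interval -0.02 to 0.09). For rps29, whose zebrafish mutants lose blood stem cells, the reads were 3662 male and 3729 female (0.06, interval -0.00 to 0.13). The fusion gene rps27a, which yields ubiquitin along with its ribosomal protein, had 7081 male and 8014 female reads (-0.09, interval -0.14 to -0.04).

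**Figure D1:**
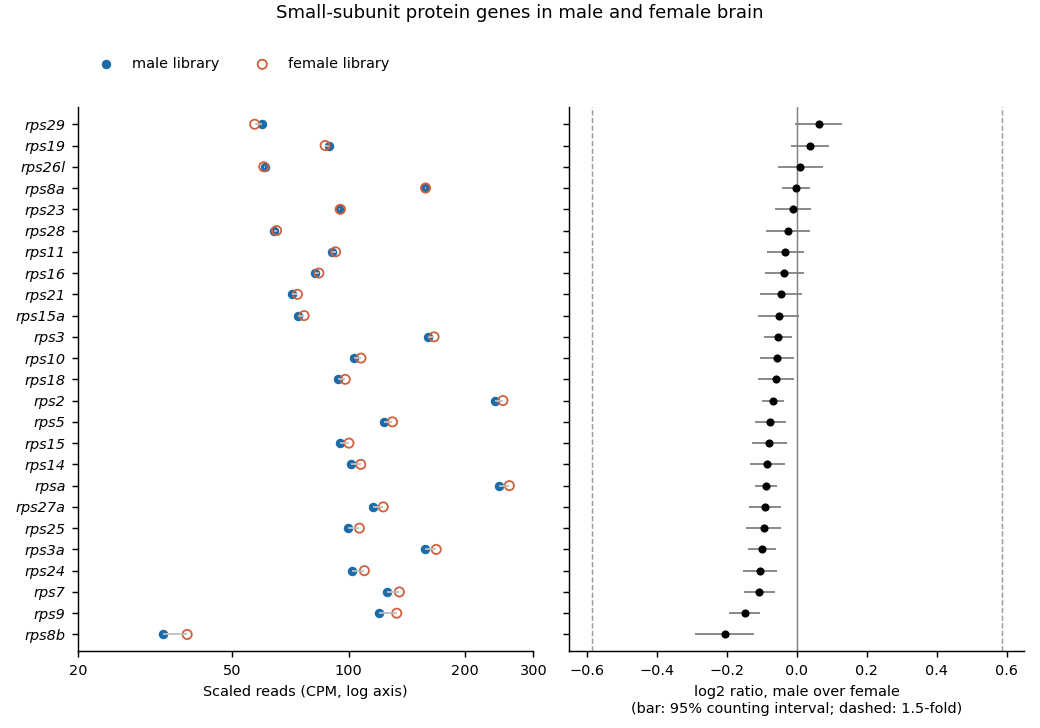
Scaled reads in CPM on a log axis for the 25 measured small-subunit members in the male (filled) and female (open) library, and beside them the log2 ratio of male over female with its 95% counting interval. The points of each gene nearly coincide, rps8b lies lowest at -0.21, and no interval reaches the dashed 1.5-fold lines.

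Some large-subunit proteins reach the exit tunnel or extend toward the peptidyl transferase region. Outside the P-stalk 36 members belonged to this subunit, of which 33 were measured and 31 were lower in the male library (50.4% of all measured genes were). The median log2 ratio was -0.06. It was -0.0092 with the trend with gene span removed and -0.11 with the trend with expression level removed. The intervals of 22 lay wholly below 0 (30.9% of all measured genes), those of 9 held 0 and those of 2 lay above it (31.5% of all). The core protein gene rpl3, which reaches toward the catalytic centre, had 15461 male and 16834 female reads (-0.03, interval -0.07 to -0.00). The lowest value in this group was that of rpl35a, another Diamond-Blackfan gene, with 4444 male and 5239 female reads (-0.15, interval -0.21 to -0.09). After it came rpl7a, with 11497 male and 13306 female reads (-0.12, interval -0.16 to -0.09), and then rpl36 at the same ratio. The gene rpl7 had 10355 male and 11907 female reads (-0.11, interval -0.15 to -0.08). The scaled female level exceeded the male one by 10.9% for rpl35a and by 8.16% for rpl7.

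In the other direction 2 large-subunit genes had intervals above 0. The ratio of rpl22l1 was 0.16 (interval 0.12 to 0.20) and its gene lies on chromosome 24 (27271787 to 27276437, minus strand). For rpl26, a protein at the tunnel exit, there were 7142 male and 7302 female reads (0.06, interval 0.01 to 0.10). Under the 9 alternative settings rpl22l1 stayed on the male side, between 0.10 and 0.21, and rpl26 did as well, at 0.00 after removal of the trend with expression and 0.11 after removal of the trend with span. The 5S particle proteins, which with 5S RNA restrain Mdm2 when ribosome assembly fails, were near level. Their ratios were -0.02 for rpl5a (8272 male and 8929 female reads), -0.04 for rpl5b (9862 male and 10813 female) and -0.02 for rpl11 (5735 male and 6203 female). The interval of rpl5b, -0.084 to -0.005, lay wholly below 0. Those of rpl5a (-0.07 to 0.02) and rpl11 (-0.08 to 0.03) held 0. The member with fewest reads, rpl37, had 1007 male and 1090 female reads, and its interval of -0.15 to 0.10 was the widest of all.

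A pair of members are named after ribosomal proteins without being subunits of the mature ribosome. The gene rpl7l1, on chromosome 20 (36699694 to 36703830, minus strand), encodes an RPL7 relative found on large-subunit precursors in human cells, and its ratio of -0.30 (interval -0.40 to -0.21) was the lowest of the 63. The gene rps19bp1 encodes a nucleolar protein that binds RPS19 and the deacetylase SIRT1 in human cells, and it had 1370 male and 1571 female reads (-0.11, interval -0.21 to -0.00). Without both, the median of the remaining 61 was again -0.06, and the range ran from rps8b to rpl22l1.

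**Figure D2:**
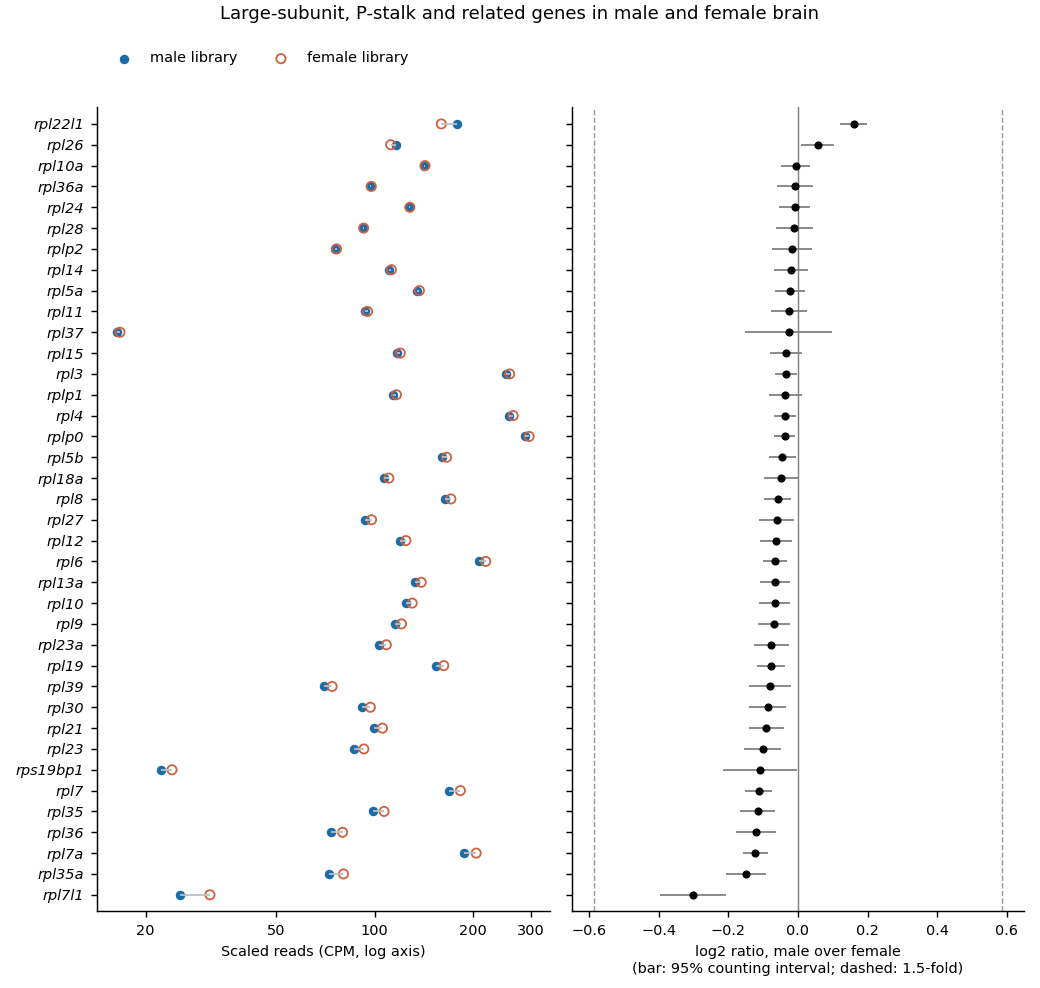
Scaled reads in CPM on a log axis and log2 ratios with 95% counting intervals for the large-subunit and P-stalk members and for rpl7l1 and rps19bp1, male library filled and female library open. The ratios run from 0.16 for rpl22l1, with rpl26 next at 0.06, to -0.15 for rpl35a and -0.30 for rpl7l1, and all intervals stay inside the dashed 1.5-fold lines.

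Against the rest of the transcriptome the members were set close together. Of all 14756 measured genes, 2.8% were at least 1.5-fold higher in the male library with an interval that excluded 1, and 6.09% were so in the female library, against 0 of 63 members in each direction. At 2-fold the shares were 1.06% and 2.7%, again with 0 members. These shares include genes with few reads, while the lowest member level was 16.4 CPM male and 16.7 CPM female. Among the 12182 genes with at least 5 CPM, the shares were 1.46% (male) and 2.4% (female) at 1.5-fold. At 2-fold they were 0.484% and 0.919%. Among members 50 of 63 (79.4%) had a ratio within 0.1 of 0, against 39.9% of measured genes. The middle 50% of members spanned 0.06 on the log2 scale, against 0.27 for all measured genes, which include genes with few reads. That of the 25 measured translation factor and other TOP genes described below also spanned 0.06. A narrow spread was thus not particular to the members. Counting error alone accounts for a standard error of 0.03 per member (root mean square), and the standard deviation of the ratio over members was 0.06. Members have many reads, a median of 6352 male and 7164 female reads, which by itself narrows their counting error relative to genes with few reads. With a minimum of 5 CPM, 45% of genes lay within 0.1 of 0. The count within 0.1 depended on the setting. It was 24 of 63 members (38.1%) with the trend with expression level removed, against 41.8% of measured genes, and 30 (47.6%) with scaling by library totals, against 39.5%. With the trend with genomic span removed it was 56 (88.9%), against 41.6%.

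The tilt toward the female library was small and shared by most members. Ratios below 0 were found for 92.1% of members and for 50.4% of measured genes. Intervals wholly below 0 were found for 40 members (63.5%), against 30.9% of measured genes, and wholly above 0 for 2 members (3.17%), against 31.5%. Summed over all members, there were 456904 reads in the male library, 0.734% of its total (interval 0.732 to 0.736), and 504546 in the female library, 0.785% (interval 0.783 to 0.787). These shares are on the scale of library totals, where their log2 ratio was -0.096 and the median of all measured genes was -0.04. With size factors the summed reads gave -0.055 (interval -0.061 to -0.049). With size factors, too, the median of all measured genes was -0.00, which places the members' median 0.06 below it. Since the genes of a library share its RNA pool and preparation, these 63 ratios are not independent observations of a sex difference.

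**Figure D3:**
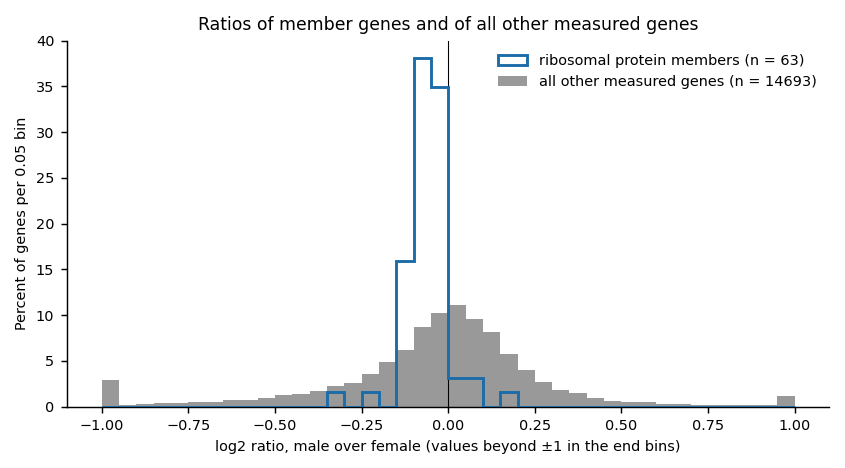
Percent of genes in each 0.05 bin of the log2 ratio of male over female, for the 63 measured members (outline) and the 14693 other measured genes (filled). The members form a narrow peak just below 0, with rpl22l1 at 0.16 and rpl7l1 and rps8b at -0.30 and -0.21 apart from it, while the other genes spread widely on both sides.

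The size of the tilt depended on the scaling and on which trend was removed, and its cause was not tested. Members are compact, with a median span of 4728 bases against 15729 for all measured genes. Once the trend of the ratio with span over all measured genes was removed, the median of the members was -0.014. Then 40 of 63 (63.5%) were below 0, against 50.4% of all. Intervals wholly below 0 then numbered 15 (23.8%), against 29.8% of all genes, and wholly above it 5 (7.94%), against 30.9%. Removal of the trend with expression level instead moved the median to -0.11, with 59 members below 0 (50.5% of all genes). That trend had a median of 0.05 at the members' read levels. The intervals of 54 members (85.7%) then lay wholly below 0, against 30.5% of all genes. Only 1 (1.59%) lay wholly above it, against 30.2%. Scaling by library totals gave -0.10 with 60 members below 0 (59.6% of all genes), and there the median of all measured genes was -0.04. With that scaling the intervals of 54 members (85.7%) lay wholly below 0, against 39.3% of all genes. Again 1 (1.59%) lay wholly above it, against 24.7%. The median thus ranged from -0.014 to -0.11, while 0 members reached 1.5-fold under each of the 9 alternative settings.

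**Figure D4:**
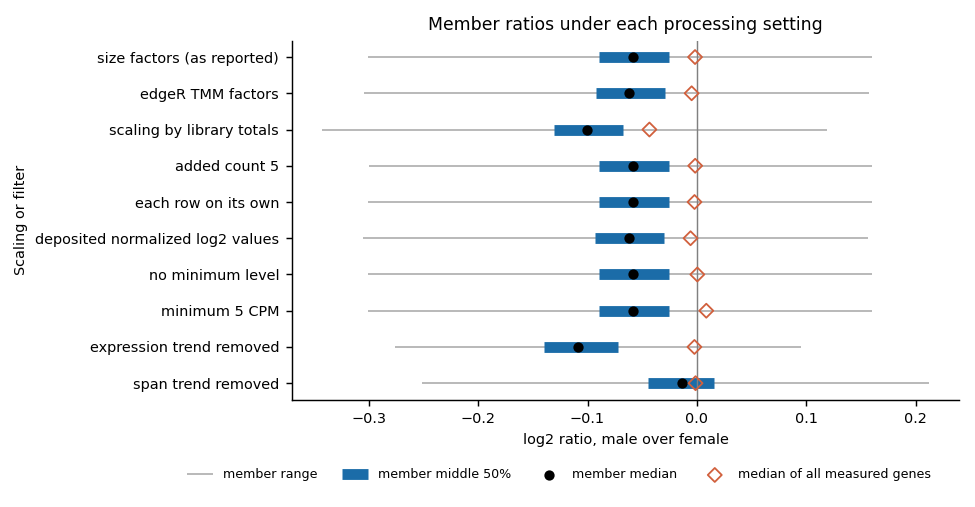
Log2 ratio of male over female for the 63 measured members under each processing setting, with the range (thin line), the middle 50% (thick bar), the median (dot) and the median of all measured genes (diamond). The member median is below 0 throughout, at -0.11 with the expression trend removed and at -0.014 with the span trend removed.

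Related gene copies were compared within each library, where scaling has no part. The gene rpl22l1 took 72.2% of the reads of the rpl22l1 and rpl22 pair in the male library (interval 71.5 to 72.9), against 68.4% in the female (interval 67.6 to 69.1). In mouse, Rpl22 protein represses Rpl22l1, and either protein can take the same place in the ribosome. Whether this bears on the shares in these libraries was not tested. Here rpl22, listed in the table as zgc:123327 on chromosome 11, had 4210 male and 4824 female reads (-0.11, interval -0.17 to -0.05), so the pair leaned opposite ways. The log2 ratio of rpl22l1 exceeded that of rpl22 by 0.27 (interval 0.20 to 0.34, normal approximation from the 4 counts).

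Among the other pairs, rps8b took 17.4% of the reads of rps8b and rps8a in the male library (interval 16.7 to 18.1), against 19.5% in the female (interval 18.8 to 20.2). Its partner rps8a, at 9686 male and 10306 female reads, was level at -0.00 (interval -0.04 to 0.04). The share of rpl7l1 in its pair with rpl7 was 13.1% for male reads and 14.7% for female reads, and these intervals, too, did not meet. By contrast rpl5b took 54.4% of the male reads of rpl5b and rpl5a and 54.8% of the female ones, with overlapping intervals. How counting treated reads that match more than 1 copy is not stated in the sources used here, so the shares of similar copies are uncertain.

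**Figure D5:**
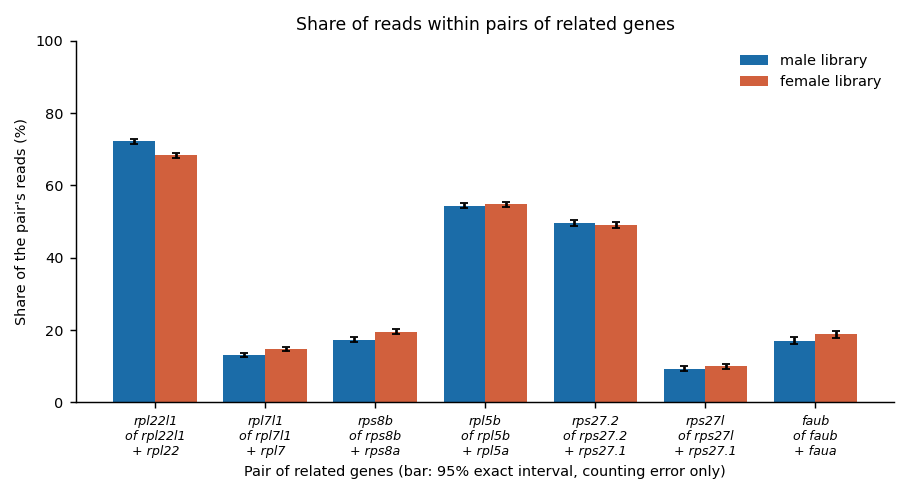
Share of a pair's reads taken by the first-named gene, in percent, in the male and the female library, with 95% exact intervals for counting error. The rpl22l1 bar is higher in the male library, at 72.2% against 68.4%, and the rpl7l1 and rps8b bars are lower there. The intervals of the other pairs overlap, those of faub and faua only narrowly, at 17.0% male against 18.8% female. The log2 ratio of faub minus that of faua was -0.17 (interval -0.30 to -0.05, normal approximation).

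Not every ribosomal protein gene carries a fitting symbol in the table. A further 12 genes have a ribosomal protein symbol only in current RefSeq annotation, and 11 of them were measured. Their median log2 ratio was also -0.06, and 10 of the 11 were below 0. They include zgc:92237, now rps6, the small-subunit protein phosphorylated by S6 kinase, with 10358 male and 11476 female reads (-0.06, interval -0.10 to -0.02). The lowest was zgc:136826, now rps27l, a relative of RPS27, with 674 male and 840 female reads (-0.23, interval -0.38 to -0.08). The only ratio above 0 was that of zgc:77235, now rpl27a, at 0.04 (interval -0.06 to 0.15). Outside the symbol rule, the rps30 precursor gene faua had 5046 male and 5680 female reads (-0.08). The gene gnb2l1, now rack1, on chromosome 14, was listed at 0 in both libraries. Nothing is read from this about its expression in brain.

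The 9 members at 0 share their position. Of these, rpl13, rpl34, rplp2l, rps13, rps20 and rps4x lie on chromosome 7 in an unbroken run of 1319 rows at 0 in both libraries, from 6819342 to 77267489 (Zv9). In a like run of 432 rows on chromosome 23, from 27177358 to 46374625, lie rps12 and rps26. The last, rpl38, falls in a run of 179 rows on chromosome 12, from 39690445 to 50686698. On chromosome 23, outside the run, rpl10 had 7624 male and 8490 female reads and rps21 had 4387 male and 4810 female reads. These genes are therefore only listed at 0, and nothing is read from their values about expression in brain. This includes rps4x, whose human counterpart is X-linked with a copy on the Y chromosome.

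The measured members were otherwise scattered over the genome, on 22 chromosomes. The nearest neighbours were rplp2 and rps26l on chromosome 6, on the same strand and 8156 bases apart with no row between them. Next came rpl3 and rpl27 on chromosome 3, 22618 bases apart. In neither case did the neighbours differ beyond their intervals, at -0.02 and 0.01 for rplp2 and rps26l, and at -0.03 and -0.06 for rpl3 and rpl27.

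Other genes of the translation pathway were described by the same rule, from lists chosen with earlier results of these data known. Translation factors and other genes whose mammalian messenger RNAs carry a TOP motif had 25 measured genes. Of these, 21 were below 0 (84%, against 50.4% of all measured genes) and none reached 1.5-fold. Their median was -0.06 (-0.027 with the span trend removed and -0.087 with the expression trend removed). The genes with most reads in that list were the poly(A)-binding protein gene pabpc1b, with 33060 male and 33538 female reads (0.07), and the elongation factor gene eef2b, with 31876 male and 34129 female reads (-0.01). Ribosome biogenesis genes, which process ribosomal RNA and assemble the subunits, had 70 measured genes, 59 of them below 0 (84.3%) and none at 1.5-fold. Their median was -0.11 (-0.089 with the span trend removed and -0.095 with the expression trend removed). The nucleolin gene ncl had 19293 male and 21745 female reads (-0.08), and the polymerase I factor gene ubtf had 18834 male and 17939 female reads, the highest ratio of the list at 0.16. Mitochondrial ribosomal protein genes, which belong to a separate organelle ribosome, had 38 measured genes, 23 below 0 and none at 1.5-fold. The median of these genes was -0.02 (0.0033 with the span trend removed and -0.0080 with the expression trend removed). Their ratios ran from -0.38 for mrpl9 (972 male and 1343 female reads) to 0.18 for mrpl12 (3231 male and 3030 female reads). The 2 with most reads were mrpl35, at 0.09 (8321 male and 8287 female reads), and mrpl23, at -0.13 (3099 male and 3608 female reads).

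Of 17 measured regulators of TOP messenger RNAs and of rps6, 12 were above 0 and 5 below it. Those below made up 29.4%, against 50.4% of all measured genes. The intervals of 7 lay above 0, those of 2 below it, and those of 8 held it. The median was 0.04, against -0.0032 with library totals and 0.0043 with the expression trend removed. Among these regulators 1 gene passed 1.5-fold, while 2.8% of all measured genes did so toward the male library. It was the 4E-BP family gene eif4ebp3l, with 1081 male and 751 female reads (0.61, interval 0.48 to 0.75). The kinase gene mtor was at 0.06 (9757 male and 9929 female reads), and larp1, which binds the TOP motif, was at 0.04. Of the 6 rps6k genes that the symbol rule leaves out, 1 passed, rps6ka3b, with 5643 male and 3870 female reads (0.63, interval 0.57 to 0.69). In the nucleolar stress list, 1 of 6 measured genes passed, the cell cycle inhibitor cdkn1a with 95 male and 48 female reads (1.07, interval 0.56 to 1.61). Its level was close to the minimum of 1 CPM. Of the 6 genes 3 were above and 3 below 0, with a median of 0.01, and mdm2 was at -0.07.

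Several lists of markers of other cells and tissues held larger differences than any member. For comparison, 6.09% of all measured genes were at least 1.5-fold higher in the female library and 2.8% in the male one. Among genes with at least 5 CPM these shares were 2.4% and 1.46%. Yolk and liver markers were higher in the female library at 1.5-fold for 18 of 18 measured genes of 20 listed, with a summed level of 55.7 CPM male and 2445 CPM female. Among them c3a.1, listed as si:dkey-76b14.4, was at 0 in both. Oocyte markers did so for 9 of 10 measured genes of 18, at a summed 129 CPM male and 236 CPM female. Most of the male sum was nobox (7027 male and 7147 female reads), and buc, bmp15 and zp2, now zp2.5, were at 0 in both libraries. Leukocyte markers did so for 6 of 13 measured genes (519 CPM male, 680 CPM female), with apoc1, p2ry12 and spi1b at 0 in both, and cell proliferation genes for 15 of 22 (226 CPM male, 303 CPM female), with mki67 among 6 at 0. Skeletal muscle markers went both ways, with 6 of 16 higher among male reads and 3 among female reads (565 CPM male, 522 CPM female). Neuronal markers had none of 18 at 1.5-fold, a median of 0.02 (-0.03 with library totals, -0.04 with the expression trend removed and -0.0066 with the span trend removed) and summed levels of 8638 CPM male and 8335 CPM female. The part of these cell types in the members' tilt was not tested. From markers listed at 0 in both libraries, nothing is read about expression.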

How the data were processed

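RNA sequencing (single reads of 51 bp, per the labels' protocols) was made from 1 pooled library of male and 1 of female brain, 5 fish each, from 3 µg of RNA. The submitters' processing notes name build Zv9, DESeq and TopHat 1.4.1. The sources used here name no counting program, annotation, strand setting or treatment of multiply matching reads, so reads of overlapping or antisense genes may be mixed. Raw counts in the deposited table are estimated counts: of values above 0, those whole within 0.001 made up 1.56% (male) and 1.92% (female). The table also holds the authors' normalized values on a log2 scale, each the log2 of the deposited count over 0.971 (male) or 1.03 (female).

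Estimated counts were summed by Entrez ID and rounded. Median-of-ratios size factors were 0.970 (male) and 1.03 (female). The log2 ratio used an added count of 0.5, with Clopper-Pearson 95% intervals. A CPM is a scaled count per 1000000 of the mean library total. A gene was called at 1.5-fold or 2-fold with a mean of at least 1 CPM and an interval excluding 1. Current symbols came from RefSeq (GRCz12tu) for 22112 of 27095 genes. Coordinates are those of the deposited table (Zv9). Trends were removed by lowess (fraction 0.3). The members, lists and rules were chosen with earlier results of these data known. Members named with full values were the module's markers, P-stalk and 5S particle genes, related copies, the 5 with most and with fewest reads, and up to 6 per direction whose interval lay farthest from 0. Other members are examples picked with their values known. The calculation was checked on simulated data with counting noise alone, where 95.2% of intervals over 14559 unchanged genes held the true ratio. Software was edgeR 4.0.16 (TMM factors only) in R 4.3.3, and scipy 1.17.1, statsmodels 0.14.6, pandas 2.3.3 and numpy 2.4.6 in Python 3.11.15. Results of some listed genes are not reported here.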

Additional observations from a re-analysis of the deposited data

How the results depend on the processing

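No member reached 1.5-fold or 2-fold in either direction under any of the 9 alternative settings, or of 2 more chosen after seeing the data. The median over members, small-subunit and large-subunit symbols was -0.06 each. It moved to -0.10, -0.10 and -0.10 when scaled by library totals, to -0.11, -0.11 and -0.11 with the expression trend removed, and to -0.014, -0.019 and -0.0076 with the span trend removed. The cause was not tested. Adding the genes with a ribosomal protein symbol in current annotation moved the large-subunit median to -0.050 and the summed shares to 0.831% male and 0.889% female. Without rpl7l1 and rps19bp1 the shares were 0.729% male and 0.779% female. Of single members, 15 of 63 left their counting interval with library totals (2 changed sign), 35 with the expression trend removed (3 changed sign) and 29 with the span trend removed (18 changed sign). None did with TMM factors, an added count of 5, single rows, the deposited log2 values or other minimum levels. Single rows and other minimum levels could not move a member, as each has 1 row and every measured one exceeds 5 CPM. An added count of 5 could hardly do so at 1007 reads or more. Nor could the deposited values, made from the same counts with nearly the same factors. No paired analysis was possible because each sex has 1 library. Leaving out a library was not possible for the same reason. Depth limits members to differences beyond 0.03 to 0.12 on the log2 scale.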
